A study of Danio rerio with 15 samples.

Results

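The tissue around a zebrafish fin amputation plane was compared between 21 and 7 days post amputation (dpa), across all genes measured. The comparison used 6 libraries, 3 at each of these time points, out of 15 in the series, and 10234 of the 14836 genes in the table passed the filter on low values. Each library was bulk RNA-seq of a pool of 10 wild-type (WT) Danio rerio, and the labels give no transgene, mutation or drug for any group. The piece of fin collected reached 1 bone segment to either side of the amputation plane. The other time points were 0 dpa, 4 dpa (3.5 dpa in the series' design text) and 14 dpa, with 3 pools each. A pool averages its 10 animals, so the spread between libraries is a spread between pools. In bulk tissue, fewer cells of a type and less RNA per cell of that type cannot be told apart.

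A zebrafish fin regrows after amputation from a blastema, a mass of proliferating cells under a thickened wound epidermis. Osteoblasts rebuild the bony rays, dermal fibroblasts lay down matrix, and osteoclasts, epidermis, nerves, vessels and pigment cells are restored around them. Growth moves away from the plane with the distal tip, so tissue that stays at the plane passes into a phase of remodelling and maturation. The series title names Erk signalling, a kinase cascade downstream of Fgf receptors, and a memory for the size of skeletal parts. The comparison of 21 with 7 dpa asks what had changed at the plane over those weeks.

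The deposited values were TPM (estimated reads per gene divided by gene length and scaled to the same sum in every library). The gene zgc:158463, of type rRNA, took 26.1, 67.0 and 31.0% of TPM in the 21 dpa libraries, against 60.3, 61.1 and 9.23% in the 7 dpa libraries. It was therefore dropped, and the other genes were rescaled by the median of their ratios to a common reference. Absolute depth is unknown, but low values step in units of what 1 read is worth. That unit was 1.61, 2.45 and 2.198 times the unit of 7 dpa replicate 3 in the 21 dpa libraries, against 1.67, 2.37 and 1 in the 7 dpa libraries. Neither the rRNA share (exact permutation test, two-sided, p = 1) nor the scaling factor (p = 0.9) separated the groups, although 3 against 3 libraries cannot give a p below 0.1. The same low values sorted the 15 libraries into 2 sets that the labels do not name. All 21 and 14 dpa libraries and 7 dpa replicate 2 were in set B, and 7 dpa replicates 1 and 3 were in set A with all 4 and 0 dpa libraries. The units given above for set B libraries were read against a set A library. Ratios cluster less sharply between sets, so those units are approximate. Set and time point therefore overlap in part. The adjusted p with library set as a covariate is given below for the calls that it ended, singly or as a range. As 7 dpa alone has libraries of both sets, 7 dpa replicate 2 stands for 7 dpa in any contrast of that fit. The change in that fit is thus the 21 dpa mean against a single 7 dpa library, with the spread taken from the other libraries. Spearman's rank correlation between libraries was 0.923 to 0.946 among 21 dpa libraries, 0.915 to 0.965 among 7 dpa libraries and 0.870 to 0.933 between them.

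Of the 10234 genes tested, 605 (5.91%) differed between 21 and 7 dpa at an adjusted p under 0.05 (limma, Benjamini-Hochberg over all genes). They divided almost evenly, with 294 genes higher at 21 dpa and 311 lower, and the median log2 change over all genes tested was -0.000166. Most changes were moderate: 133 of the higher genes and 137 of the lower genes differed by a log2 value of at least 1, and 21 and 17 by at least 2. The 3 libraries of each time point did not overlap in 291 of the 294 higher and 310 of the 311 lower genes, and in 21.7% of all genes tested. The 5.91% is the share to set beside the percentages of gene lists below. The lists and their members were chosen with earlier results of these data known, and some after these values had been seen. A share above 5.91% therefore describes a list and does not test it. At an unadjusted p under 0.05 in the same limma fit, 1944 of the 10234 genes passed. That is the background for list counts at that threshold. On values rescaled to a sum of 1000000 after the rRNA gene was dropped, 270 genes passed, 72 higher and 198 lower, so that 26.7% were higher against 48.6% with median-of-ratios scaling. The median of all genes lay at -0.25 on those rescaled values and at -0.14 on the deposited values, where 79 genes passed. With library set as a covariate 108 genes passed, of which 103 were among the 605. Leaving out each of the 15 libraries in turn kept 215 of the 605 calls every time, 108 higher and 107 lower, and 94 of these, 52 higher and 42 lower, also passed with the library set as a covariate.

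**Figure D1:**
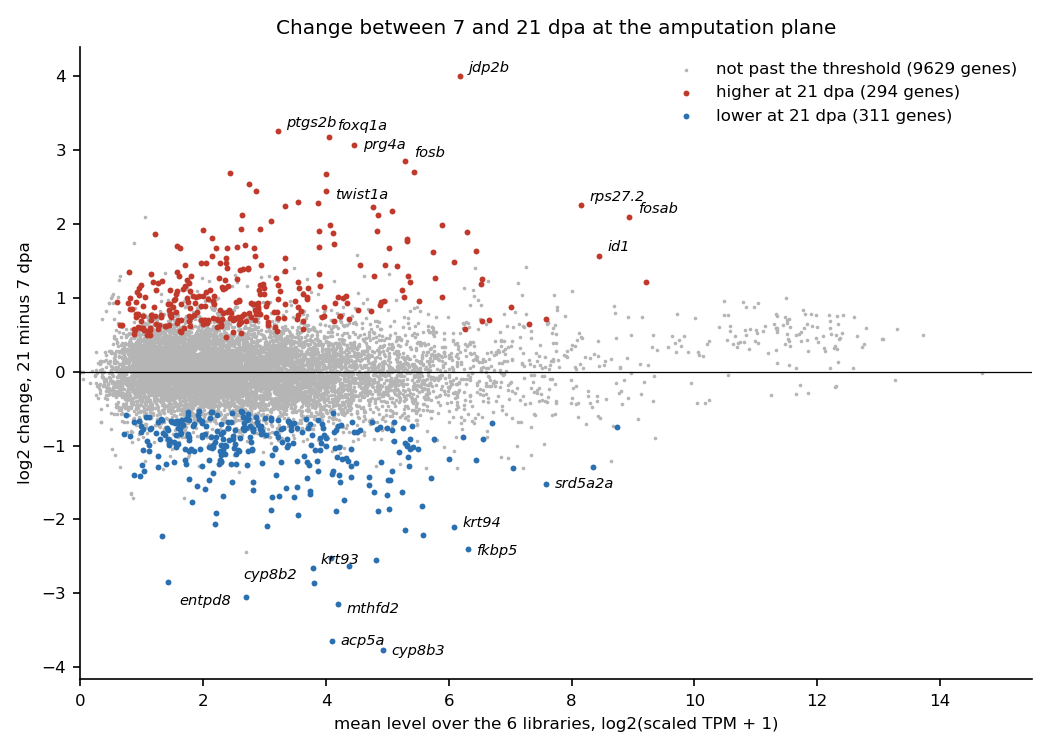
Each point is 1 of the 10234 genes tested, with its mean level over the 6 libraries on the horizontal axis as log2(scaled TPM + 1) and its log2 change, 21 minus 7 dpa, on the vertical axis. The 294 genes higher at 21 dpa (red) and the 311 lower (blue) lie on both sides of 0 over the whole range of levels, with jdp2b at 4.004 and cyp8b3 at -3.77 at the extremes among the labelled genes.

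Genes of the immediate early response were among the largest increases at 21 dpa. These genes encode transcription factors that are switched on within minutes of a signal, among them the Fos and Jun proteins that form the AP-1 complex. The gene with the largest change of the 10234, jdp2b, which encodes a dimerization partner of Jun, had 181, 257 and 531 scaled TPM in the 21 dpa libraries, against 33.9, 11.3 and 13.01 in the 7 dpa libraries (log2 change 4.004, SE 0.59, adjusted p = 0.00101). All 3 libraries at 21 dpa were above all 3 at 7 dpa, and replicate 3 was the highest. The Fos family member fosb had 39.2, 177 and 162 scaled TPM in the 21 dpa libraries, against 29.9, 13.6 and 5.84 in the 7 dpa libraries (log2 change 2.85, SE 0.60, adjusted p = 0.0129). Its 21 dpa replicate 1 was close to the highest 7 dpa library, and its call was lost without 21 dpa replicate 2 or 3 (adjusted p up to 0.0643 without 21 dpa replicate 2) and with library set as a covariate (adjusted p = 0.166). The orphan nuclear receptor gene nr4a1 had 10.8, 20.7 and 17.8 scaled TPM at 21 dpa, against 2.90, 2.51 and 1.19 at 7 dpa (log2 change 2.44, SE 0.27, adjusted p = 0.000123), with no overlap. The abundant transcript fosab, which RefSeq places 2 protein-coding genes from jdp2b, had 586, 1317 and 1354 scaled TPM at 21 dpa, against 468, 226 and 126 at 7 dpa (log2 change 2.09, adjusted p = 0.0409). Here too the lowest library at 21 dpa lay near the highest at 7 dpa, and the adjusted p was 0.146 without 21 dpa replicate 2. Of the 25 genes tested in the immediate early and AP-1 list, 7 passed (28%, against 5.91% of all genes), each of them higher at 21 dpa. The others were klf2b, egr2a and egr3, with log2 changes of 1.77, 1.07 and 0.91. The median log2 change of the list was 0.77, and 2 of the 7 calls, jdp2b and nr4a1, held with library set as a covariate, where the others had an adjusted p of 0.0942 to 0.286. The kinase gene sik1, a target of cAMP signalling, had 40.9, 90.5 and 93.8 scaled TPM at 21 dpa, against 20.03, 17.0 and 9.56 at 7 dpa (log2 change 2.17, adjusted p = 0.00276, and 0.1 with library set as a covariate).

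**Figure D2:**
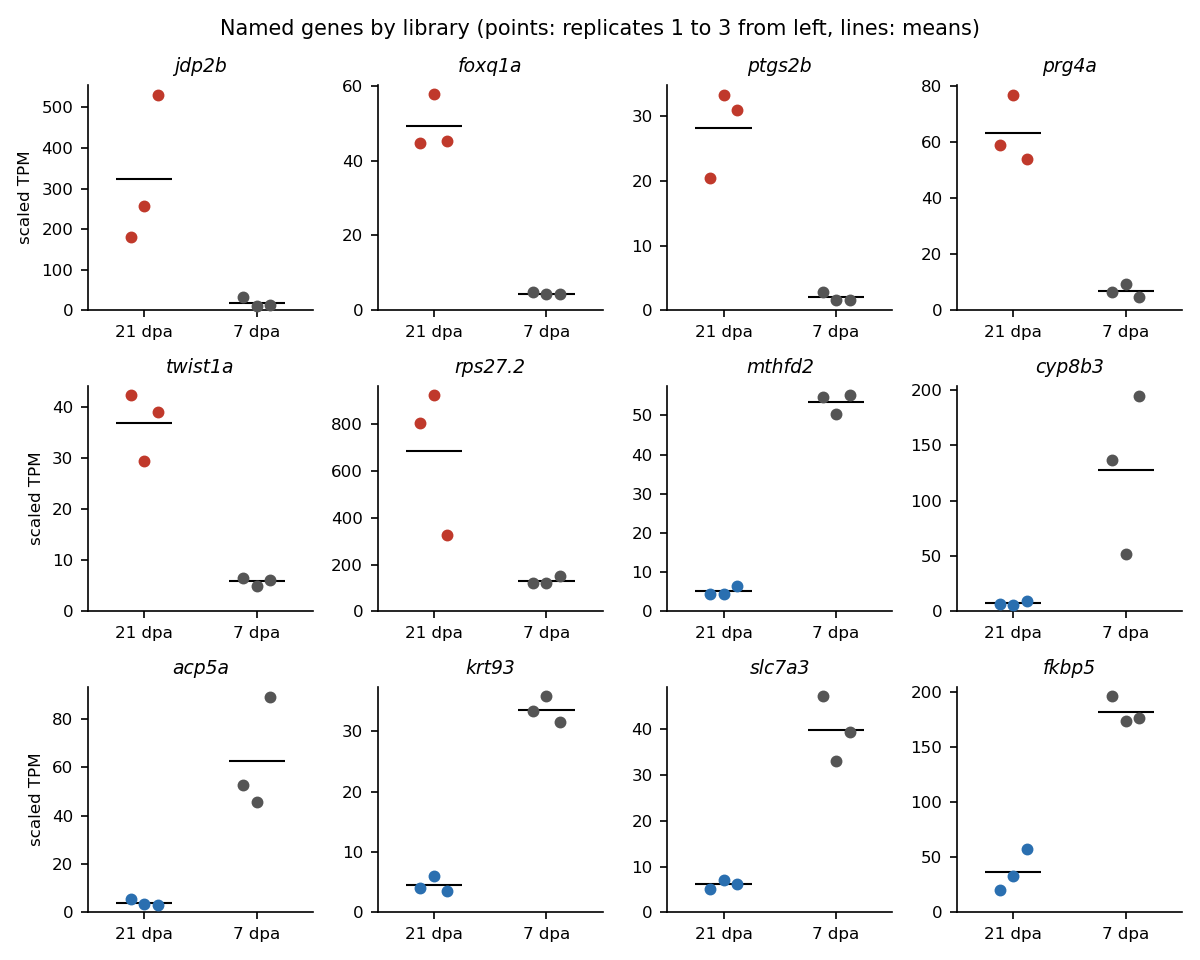
Scaled TPM of 12 genes in each library, with the 3 libraries at 21 dpa on the left of each panel (red where the gene was higher at 21 dpa, blue where lower) and the 3 at 7 dpa on the right (grey), and a line at each mean. In every panel the libraries of one time point lie wholly above those of the other, as for mthfd2 with 4.46, 4.57 and 6.59 at 21 dpa and 54.8, 50.3 and 55.1 at 7 dpa.

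Both cyclooxygenase-2 genes rose. Cyclooxygenases make the precursor of prostaglandins, lipid signals of inflammation and repair. ptgs2b had 20.4, 33.3 and 31.0 scaled TPM in the 21 dpa libraries, against 2.92, 1.58 and 1.66 in the 7 dpa libraries (log2 change 3.26, SE 0.21, adjusted p = 1.16e-06). ptgs2a, a more abundant transcript, had 62.9, 79.3 and 80.7 scaled TPM at 21 dpa, against 21.7, 18.6 and 21.3 at 7 dpa (log2 change 1.80, SE 0.20, adjusted p = 0.000117). Neither gene's libraries overlapped, and both calls held with library set as a covariate (adjusted p = 0.000112 and 0.00647). A list of 20 prostaglandin synthesis and reception genes, drawn up after these values had been seen, held 6 calls (30%, against 5.91% of all genes). Of these, 5 were higher and 1 lower, and the list median log2 change was 0.31. The receptor gene ptger1a (1.49, 2.39 and 1.58 scaled TPM at 21 dpa, against 0.225, 0.658 and 0.226 at 7 dpa) and the receptor gene ptger2b (13.9, 18.8 and 18.3 scaled TPM at 21 dpa, against 6.99, 10.005 and 6.25 at 7 dpa) rose, although the call of ptger2b (adjusted p = 0.0211) was lost without single libraries (up to 0.0881 without 7 dpa replicate 1). The prostaglandin D synthase gene ptgdsb.2 (log2 change 1.21, adjusted p = 0.045) rose and ptges3b (log2 change -1.05, adjusted p = 0.0477) fell, with adjusted p of 0.191 without 7 dpa replicate 1 and 0.168 without 21 dpa replicate 2. These receptor and synthase genes had an adjusted p of 0.213 to 0.444 with library set as a covariate.

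Of 37 chemokine, cytokine and receptor genes tested, 7 rose and 1 fell (21.6%). Chemokines are secreted proteins that direct the movement of leukocytes and other cells. The receptor gene cxcr4a had 30.1, 24.3 and 20.7 scaled TPM in the 21 dpa libraries, against 3.49, 4.97 and 4.37 in the 7 dpa libraries (log2 change 2.30, SE 0.20, adjusted p = 1.77e-05), which is the largest change of this list, and its call held with library set as a covariate (adjusted p = 0.00397). The cytokine receptor gene il13ra1 was as sharply separated, with 39.0, 35.5 and 38.8 scaled TPM at 21 dpa, against 12.7, 14.4 and 12.9 at 7 dpa (log2 change 1.44, SE 0.17, adjusted p = 0.000192). cxcl8b.1, a relative of the neutrophil attractant interleukin-8, had 129, 102 and 119.6 scaled TPM at 21 dpa, against 16.7, 30.9 and 45.6 at 7 dpa (log2 change 1.98, adjusted p = 0.00151, and 0.0637 with library set as a covariate). In the other direction ccl19b, a chemokine of the lymphocyte-attracting type, had 25.4, 23.0 and 24.2 scaled TPM at 21 dpa, against 74.3, 55.6 and 161 at 7 dpa (log2 change -1.81, adjusted p = 0.00958, and 0.324 with library set as a covariate). The median log2 change of the list was 0.16, but -0.0024 on the rescaled values. The remaining higher members were cxcl18b, csf3a, ackr3b and csf1a, with log2 changes of 1.299, 1.199, 0.75 and 0.67, and each lost its call without single libraries (highest adjusted p 0.111 without 7 dpa replicate 1, 0.0686 without 21 dpa replicate 3, 0.177 without 21 dpa replicate 2 and 0.101 without 7 dpa replicate 1). These 4 had an adjusted p of 0.154 to 0.349 with library set as a covariate. The Nf-kappaB inhibitor gene nfkbiaa, itself an Nf-kappaB target, had 113, 151 and 196 scaled TPM at 21 dpa, against 46.1, 32.7 and 41.2 at 7 dpa (log2 change 1.89, SE 0.26, adjusted p = 0.000595), while the signalling kinase gene ripk2 had 7.99, 10.9 and 12.8 scaled TPM at 21 dpa, against 29.5, 36.9 and 22.4 at 7 dpa (log2 change -1.40, adjusted p = 0.0054). These were the 2 calls among 16 genes (12.5%, against 5.91% of all genes) in an Nf-kappaB list that was also drawn up after the values had been seen. The list median log2 change was 0.16, but -0.02 on the deposited values and -0.11 on the rescaled values. The neutrophil marker mpx had 1.67, 2.58 and 1.23 scaled TPM at 21 dpa, against 1.42, 0.73 and 0.676 at 7 dpa (adjusted p = 0.296). The other neutrophil marker, mmp9, which the osteoclast list also holds, had 68.9, 51.4 and 89.3 scaled TPM at 21 dpa, against 95.5, 107 and 115 at 7 dpa (adjusted p = 0.274), so their log2 changes had opposite signs and neither passed. Summed levels of the macrophage markers mpeg1.1 and csf1ra were 29.1 to 29.9 at 21 dpa and 30.1 to 39.9 at 7 dpa. Their part in these results was not tested.

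Genes of cell death and growth arrest moved in both directions. The genes pmaip1 and bbc3 encode the pro-apoptotic BH3-only proteins Noxa and Puma, which p53 can induce. pmaip1 had 31.5, 35.4 and 55.6 scaled TPM in the 21 dpa libraries, against 4.24, 4.121 and 8.51 in the 7 dpa libraries (log2 change 2.68, SE 0.32, adjusted p = 0.000263). bbc3 was lower in level but as well separated, with 4.52, 3.40 and 5.35 scaled TPM at 21 dpa, against 0.782, 0.553 and 0.633 at 7 dpa (log2 change 1.70, SE 0.16, adjusted p = 2.9e-05). The stress gene gadd45bb had 30.1, 24.9 and 28.1 scaled TPM at 21 dpa, against 6.66, 7.51 and 5.93 at 7 dpa (log2 change 1.90, adjusted p = 0.000672). The polo-like kinase gene plk2b had 7.93, 11.14 and 10.8 scaled TPM at 21 dpa, against 3.60, 5.32 and 4.01 at 7 dpa (log2 change 1.04, adjusted p = 0.00238). By contrast cdkn1a, which encodes the cell cycle inhibitor p21 and is a p53 target as well, had 0.88, 1.103 and 1.80 scaled TPM at 21 dpa, against 8.98, 7.90 and 8.13 at 7 dpa (log2 change -2.07, SE 0.25, adjusted p = 0.000263). Of the 29 genes tested in this list, these 5 passed (17.2%), 4 higher and 1 lower, with a median log2 change of 0.20, but -0.07 on the rescaled values. All 5 held with each library left out, and 4 with library set as a covariate, plk2b being the exception (adjusted p = 0.139).

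Several transcription factors of the regenerating fin's mesenchyme and epidermis were higher. The forkhead genes foxq1a and foxq1b had 44.8, 57.6 and 45.2 scaled TPM at 21 dpa, against 4.90, 4.36 and 4.27 at 7 dpa (log2 change 3.18, SE 0.22, adjusted p = 1.4e-06) and 61.1, 57.5 and 59.0 scaled TPM at 21 dpa, against 13.4, 12.2 and 13.04 at 7 dpa (log2 change 2.12, SE 0.19, adjusted p = 1.77e-05), with tight replicates on both sides. twist1a, a mesenchymal regulator, had 42.4, 29.5 and 39.1 scaled TPM in the 21 dpa libraries, against 6.53, 5.05 and 6.15 in the 7 dpa libraries (log2 change 2.45, SE 0.35, adjusted p = 0.000836). The Sp8 paralogues, which act in the epidermis of growing limbs and fins, rose together: sp8a had 14.5, 17.4 and 10.5 scaled TPM at 21 dpa, against 1.92, 4.001 and 3.04 at 7 dpa (log2 change 1.93, SE 0.26, adjusted p = 0.000508). sp8b had 8.84, 10.1 and 9.65 scaled TPM at 21 dpa, against 2.04, 2.80 and 1.97 at 7 dpa (log2 change 1.69, SE 0.18, adjusted p = 8.55e-05). With library set as a covariate the adjusted p was 0.000282 for foxq1a, 0.00234 for foxq1b, 0.0275 for twist1a, 0.0504 for sp8a and 0.0164 for sp8b. Krüppel-like factor genes went both ways. klf11a had 21.6, 21.6 and 19.8 scaled TPM at 21 dpa, against 4.49, 3.099 and 3.41 at 7 dpa (log2 change 2.25, SE 0.17, adjusted p = 3.81e-06), whereas klf3 had 7.57, 12.2 and 9.73 scaled TPM at 21 dpa, against 32.5, 26.4 and 22.4 at 7 dpa (log2 change -1.38, SE 0.19, adjusted p = 0.0006). Among 48 forkhead, Sp and Klf genes, picked by symbol after the values had been seen, 10 were higher and 3 lower (27.1%), with a median log2 change of 0.12, but -0.01 on the deposited values, -0.08 on the rescaled values and -0.06 with library set as a covariate. foxc1b, which RefSeq places 2 protein-coding genes from foxq1b, also rose (6.82, 9.34 and 11.7 scaled TPM at 21 dpa, against 3.63, 2.29 and 2.74 at 7 dpa, adjusted p = 0.000881). klf11a, klf3 and foxc1b also passed with library set as a covariate (adjusted p = 0.000282, 0.0373 and 0.0171).

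Among 18 genes of actinotrichia (the collagen spicules of the fin edge) and blastema, 3 were higher and 1 lower (22.2%), with a median log2 change of 0.10, but -0.06 on the rescaled values. Beside twist1a, the blastema gene msx2b had 13.5, 13.7 and 11.9 scaled TPM at 21 dpa, against 4.69, 3.87 and 7.74 at 7 dpa (log2 change 1.17, SE 0.20, adjusted p = 0.00339), without overlap. msx1b (28.6, 24.6 and 28.3 scaled TPM at 21 dpa, against 12.9, 10.4 and 19.1 at 7 dpa) passed narrowly at an adjusted p of 0.0462, which was 0.182 without 7 dpa replicate 2. The mesenchymal homeobox gene prrx1a was lower, with 20.2, 18.9 and 21.5 scaled TPM at 21 dpa, against 31.7, 37.8 and 29.8 at 7 dpa (adjusted p = 0.0368, and 0.148 without 7 dpa replicate 2). Positional genes of the Hox list gave 1 call among 26 genes tested (3.85%, against 5.91% of all genes), although 22 of them had a positive log2 change and the list median was 0.30. That call was hoxc11a, with 10.96, 10.4 and 9.99 scaled TPM at 21 dpa, against 4.57, 4.996 and 4.095 at 7 dpa (log2 change 1.05, adjusted p = 0.00267, and 0.108 with library set as a covariate). The list does not hold every Hox gene: hoxc9a, which RefSeq places 3 protein-coding genes from hoxc11a, lies outside it and also passed, higher at 21 dpa. Of the blastema genes, msx2b and twist1a passed with library set as a covariate (adjusted p = 0.0171 for msx2b), and msx1b and prrx1a had an adjusted p of 0.104 and 0.138.

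Of 33 Wnt pathway genes tested, 6 passed (18.2%), each of them higher, with a median log2 change of 0.19, but -0.06 on the rescaled values. Wnt ligands drive blastema growth and epidermal signalling, and Dkk and Wif proteins are secreted antagonists of the pathway. The ligand genes wnt7aa and wnt11 had 10.5, 8.86 and 13.5 scaled TPM at 21 dpa, against 3.49, 4.65 and 5.11 at 7 dpa (log2 change 1.14, adjusted p = 0.0149) and 10.5, 9.16 and 8.29 scaled TPM at 21 dpa, against 5.99, 5.67 and 5.33 at 7 dpa (log2 change 0.63, adjusted p = 0.0261). Antagonist genes rose as well. dkk1a had 10.5, 4.93 and 10.9 scaled TPM at 21 dpa, against 1.63, 1.87 and 2.33 at 7 dpa (log2 change 1.67, SE 0.26, adjusted p = 0.0014). dkk2 had 4.76, 3.88 and 4.13 scaled TPM at 21 dpa, against 2.41, 1.92 and 0.768 at 7 dpa (log2 change 1.01, adjusted p = 0.0147). wif1 had 31.4, 25.8 and 22.7 scaled TPM at 21 dpa, against 12.8, 13.4 and 11.9 at 7 dpa (log2 change 1.003, adjusted p = 0.0115). The sixth call was sp8a, described above as a transcription factor. The calls of dkk1a and sp8a held with each library left out, while those of wif1, dkk2, wnt7aa and wnt11 did not, with highest adjusted p of 0.0541 without 21 dpa replicate 1, 0.0592 without 21 dpa replicate 1, 0.0772 without 7 dpa replicate 1 and 0.102 without 21 dpa replicate 1. With library set as a covariate, dkk1a alone of the 6 passed (adjusted p = 0.0494), and sp8a had an adjusted p of 0.0504. The other 4 had an adjusted p of 0.198 to 0.277.

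In the Bmp and Tgf-beta list 3 of 30 genes were higher and 1 lower (13.3%), with a median log2 change of 0.23, but -0.02 on the rescaled values. The gene that fell, bambib, encodes a decoy receptor that dampens these signals. It had 16.8, 12.8 and 15.1 scaled TPM at 21 dpa, against 38.4, 41.0 and 46.0 at 7 dpa (log2 change -1.43, SE 0.18, adjusted p = 0.00042), and 0.0279 with library set as a covariate. The Bmp target gene id1 was abundant, with 794, 505 and 538 scaled TPM at 21 dpa, against 155, 179 and 294 at 7 dpa (log2 change 1.57, SE 0.36, adjusted p = 0.0193). The ligand gene bmp2a had 11.14, 9.17 and 10.04 scaled TPM at 21 dpa, against 4.68, 5.68 and 4.63 at 7 dpa (log2 change 0.89, adjusted p = 0.0144). The antagonist gene fstb, a follistatin, had 12.6, 12.9 and 9.97 scaled TPM at 21 dpa, against 7.89, 6.24 and 6.13 at 7 dpa (log2 change 0.73, adjusted p = 0.0339). Leaving out single libraries ended the calls of id1, bmp2a and fstb, with highest adjusted p of 0.0973 without 7 dpa replicate 1, 0.064 without 7 dpa replicate 1 and 0.118 without 21 dpa replicate 2. For Fgf and Erk output, 3 of 28 genes tested passed (10.7%), each higher, with a median log2 change of 0.21. They encode feedback inhibitors of Erk signalling: dusp2 had 5.89, 6.35 and 6.74 scaled TPM at 21 dpa, against 2.995, 2.36 and 1.73 at 7 dpa, dusp1 had 105, 135 and 207 scaled TPM at 21 dpa, against 78.0, 55.7 and 47.7 at 7 dpa and spry2 had 9.83, 14.1 and 9.99 scaled TPM at 21 dpa, against 7.15, 7.38 and 3.95 at 7 dpa. Their adjusted p-values were 0.0256, 0.0405 and 0.0445, and each call was lost without single libraries, with highest values of 0.0774 without 7 dpa replicate 3, 0.134 without 21 dpa replicate 3 and 0.177 without 21 dpa replicate 2. id1, bmp2a and fstb had an adjusted p of 0.156 to 0.286, and the 3 Fgf and Erk output genes at 0.256 to 0.5 with library set as a covariate. None of the 12 Hedgehog pathway genes passed in limma, and 0 had an unadjusted p under 0.05. gli2a, a transcription factor of that pathway, averaged 8.42 ± 1.74 scaled TPM at 21 dpa and 8.89 ± 2.01 at 7 dpa (SD, n = 3 each).

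**Figure D3:**
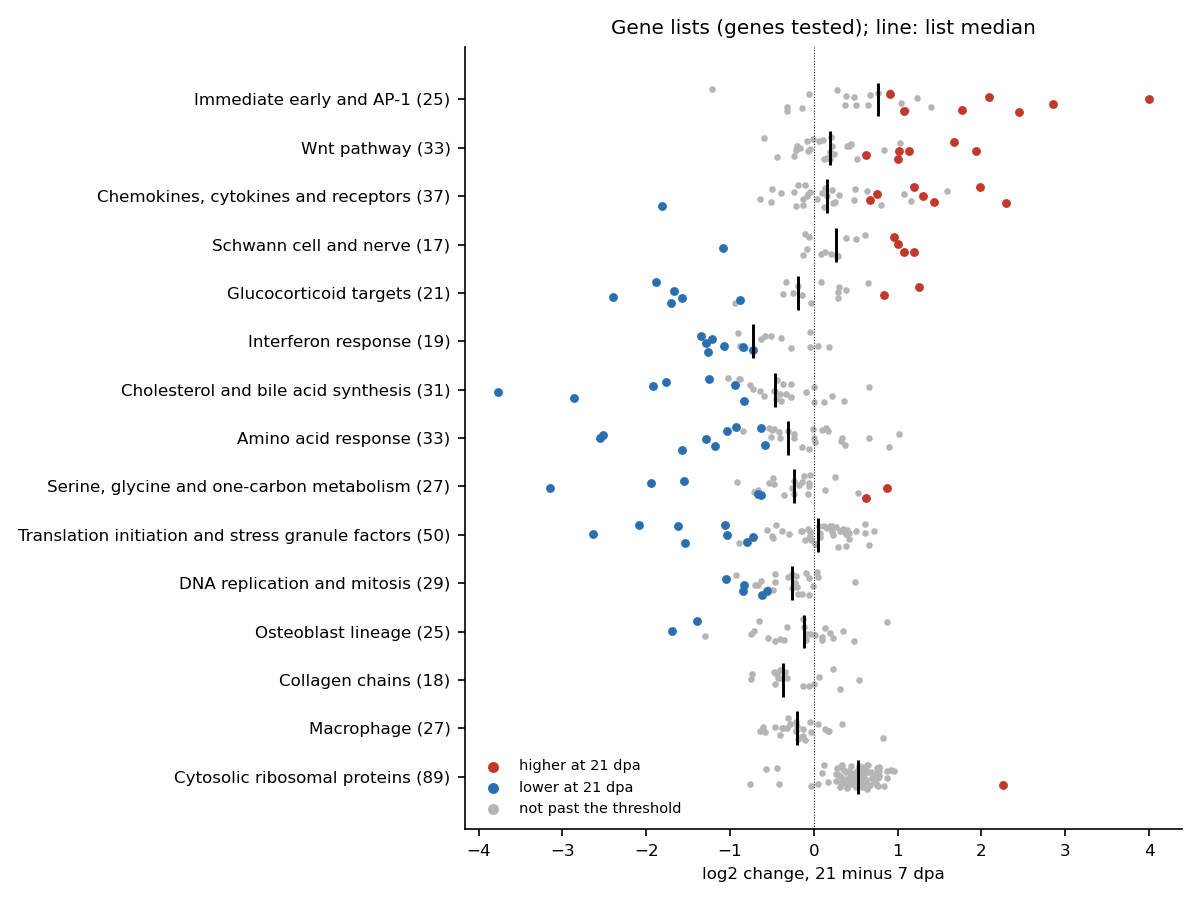
Log2 change, 21 minus 7 dpa, of each tested gene in 15 gene lists, with the number tested in parentheses, red points for genes higher at 21 dpa, blue for lower, grey for those not past the threshold, and a black line at the list median. The immediate early list has its median at 0.77 and the interferon list at -0.72, while calls of the glucocorticoid and one-carbon lists lie on both sides of 0.

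The lower genes held enzymes of serine, glycine and folate-dependent one-carbon metabolism, which supply units for nucleotide synthesis in growing cells. mthfd2, a mitochondrial folate enzyme, had 4.46, 4.57 and 6.59 scaled TPM in the 21 dpa libraries, against 54.8, 50.3 and 55.1 in the 7 dpa libraries (log2 change -3.15, SE 0.17, adjusted p = 2.62e-07). Its libraries were tightly grouped at both times, and it had the smallest p of any named gene. The glycine decarboxylase gene gldc had 3.91, 4.78 and 6.33 scaled TPM at 21 dpa, against 28.5, 20.3 and 17.8 at 7 dpa (log2 change -1.94, SE 0.26, adjusted p = 0.000508). mthfd1l, the next mitochondrial folate enzyme, had 1.11, 1.86 and 0.716 scaled TPM at 21 dpa, against 7.15, 5.10 and 4.14 at 7 dpa (log2 change -1.54, adjusted p = 0.00707). In a list of 27 such genes, drawn up after the values had been seen, 5 fell and 2 rose (25.9%), with a median log2 change of -0.24. phgdh and shmt1 fell with log2 changes of -0.63 and -0.67, and their calls were lost without single libraries (adjusted p = 0.171 without 21 dpa replicate 2 and 0.108 without 21 dpa replicate 2). The gene tdh, for threonine dehydrogenase, was abundant and higher, with 185, 168 and 172 scaled TPM at 21 dpa, against 106, 92.3 and 86.5 at 7 dpa (log2 change 0.88, adjusted p = 0.0119, and 0.147 with library set as a covariate), and slc25a32a had a log2 change of 0.62 (adjusted p = 0.0337, and 0.151 without 7 dpa replicate 1). With library set as a covariate mthfd2 and gldc passed (adjusted p = 0.000112 and 0.0369), and the other 5 called members had an adjusted p of 0.142 to 0.403.

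The amino acid transporter genes slc3a2b, slc7a3 and slc38a2 fell as well. slc3a2b, the heavy chain that carries several amino acid transporters to the cell surface, had 9.32, 7.96 and 15.8 scaled TPM in the 21 dpa libraries, against 62.8, 58.6 and 81.0 in the 7 dpa libraries (log2 change -2.55, SE 0.32, adjusted p = 0.000327). The cationic amino acid transporter gene slc7a3 had 5.15, 7.07 and 6.15 scaled TPM at 21 dpa, against 47.3, 33.1 and 39.5 at 7 dpa (log2 change -2.52, SE 0.22, adjusted p = 1.77e-05). slc38a2, a neutral amino acid transporter gene, had 9.32, 11.2 and 15.3 scaled TPM at 21 dpa, against 34.4, 26.6 and 23.7 at 7 dpa (log2 change -1.18, adjusted p = 0.00501). Both slc3a2b and slc7a3 passed with library set as a covariate (adjusted p = 0.0293 and 0.00397), and slc38a2 did not (adjusted p = 0.132). A list of 33 genes that the transcription factor Atf4 controls in mammals, likewise drawn up later, held 9 calls (27.27%), each lower, with a median log2 change of -0.31. They included the glutathione-degrading enzyme gene chac1 (137, 249 and 263 scaled TPM at 21 dpa, against 569, 419 and 551 at 7 dpa), the tRNA synthetase gene yars1 (3.69, 2.82 and 2.51 scaled TPM at 21 dpa, against 7.88, 5.72 and 8.02 at 7 dpa) and stc2a, which encodes a stanniocalcin (24.1, 25.3 and 22.7 scaled TPM at 21 dpa, against 46.5, 48.1 and 45.5 at 7 dpa). The call of chac1 was lost without some libraries (adjusted p = 0.0756 without 7 dpa replicate 1), as were those of phgdh, ddit4 and sars1 (0.171 without 21 dpa replicate 2, 0.106 without 7 dpa replicate 1 and 0.128 without 7 dpa replicate 1). smox, which oxidises the polyamine spermine, had 13.1, 19.6 and 36.4 scaled TPM at 21 dpa, against 111, 98.5 and 96.0 at 7 dpa (log2 change -2.21, SE 0.28, adjusted p = 0.00035), and 0.0253 with library set as a covariate. chac1, yars1, stc2a, phgdh, ddit4 and sars1 had an adjusted p of 0.0993 to 0.356 with that covariate.

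Nucleotide synthesis genes were lower in 6 of 25 cases (24%, a list made after the values had been seen, median log2 change -0.23). The uridine kinase gene uck2a had 1.68, 1.75 and 2.004 scaled TPM at 21 dpa, against 8.43, 6.13 and 9.75 at 7 dpa (log2 change -1.68, SE 0.21, adjusted p = 0.00035). impdh1a, for guanine nucleotide synthesis, had 1.18, 1.29 and 1.59 scaled TPM at 21 dpa, against 6.02, 4.86 and 7.48 at 7 dpa (log2 change -1.59, adjusted p = 0.000547). The CTP synthase gene ctps1a had 1.91, 2.31 and 2.04 scaled TPM at 21 dpa, against 5.49, 4.67 and 5.78 at 7 dpa (log2 change -1.03, adjusted p = 0.00267). Of these 3 genes, uck2a passed with library set as a covariate (adjusted p = 0.0393), against 0.0528 for impdh1a and 0.122 for ctps1a. The calls of umps, uck2b and rrm1 were lost without single libraries, with adjusted p of up to 0.16 without 21 dpa replicate 2, 0.127 without 21 dpa replicate 3 and 0.211 without 7 dpa replicate 1. These 3 had an adjusted p of 0.236 to 0.327 with library set as a covariate.

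Several factors of translation initiation and ribosome recycling were lower. abcf2a, an ATPase of the ribosome-associated ABCF family, had 5.06, 6.76 and 11.07 scaled TPM in the 21 dpa libraries, against 55.1, 58.3 and 39.9 in the 7 dpa libraries (log2 change -2.64, SE 0.27, adjusted p = 8.51e-05). eif4e1c, a fish paralogue of the cap-binding protein eIF4E, had 2.83, 2.96 and 3.24 scaled TPM at 21 dpa, against 13.7, 12.8 and 23.2 at 7 dpa (log2 change -2.09, SE 0.25, adjusted p = 0.000261). The helicase gene eif4a1a had 16.7, 20.2 and 25.4 scaled TPM at 21 dpa, against 76.7, 71.3 and 50.6 at 7 dpa (log2 change -1.62, SE 0.22, adjusted p = 0.000543). The stress granule protein gene g3bp1 had 12.3, 18.1 and 13.2 scaled TPM at 21 dpa, against 55.8, 47.2 and 31.0 at 7 dpa (log2 change -1.54, adjusted p = 0.005, and 0.0804 with library set as a covariate). All 8 calls among 50 translation factors, a list made after the values had been seen, were lower (16%), while the list median was 0.05, but -0.13 on the deposited values and -0.22 on the rescaled values. The other calls were abce1, eif4g2a, abcf1 and eif4eb, each lost without some libraries, with adjusted p of up to 0.0755 without 7 dpa replicate 1, 0.0758 without 7 dpa replicate 1, 0.0762 without 21 dpa replicate 1 and 0.0822 without 21 dpa replicate 1. When library set was a covariate, abcf2a, eif4e1c and eif4a1a passed (adjusted p = 0.00406, 0.0293 and 0.0221), and abce1, eif4g2a, abcf1 and eif4eb had an adjusted p of 0.0855 to 0.305. In ribosome biogenesis, also listed later, 6 of 63 genes fell and 3 rose (14.3%, median log2 change -0.14). The pseudouridine synthase gene dkc1 had 6.69, 8.23 and 9.87 scaled TPM at 21 dpa, against 19.9, 20.96 and 26.2 at 7 dpa (log2 change -1.34, adjusted p = 0.00427). The nucleolar protein gene nop58 had 7.20, 5.72 and 9.85 scaled TPM at 21 dpa, against 17.4, 15.6 and 20.04 at 7 dpa (log2 change -1.14, adjusted p = 0.0045). rrs1 fell too (log2 change -1.12, adjusted p = 0.00802), and mycb, one of the zebrafish myc genes, rose (22.3, 24.8 and 28.3 scaled TPM at 21 dpa, against 10.4, 12.4 and 12.98 at 7 dpa, adjusted p = 0.00295). When library set was a covariate, none of the 9 passed, and the adjusted p was 0.12 for dkc1, 0.152 for nop58, 0.157 for rrs1 and 0.0993 for mycb.

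Of the 89 cytosolic ribosomal protein genes, 84 had a positive log2 change, and the list median of 0.53 was positive with every scaling tried. With median-of-ratios scaling a single member passed the test (1.12%, against 5.91% of all genes). On the rescaled values 9 of the 89 passed, each higher, against 72 higher and 198 lower of all 10234 genes. With upper-quartile scaling 2 of the 89 passed, each higher, against 324 higher and 253 lower of all 10234 genes. The single member with median-of-ratios scaling was rps27.2. It had 805, 924 and 326 scaled TPM in the 21 dpa libraries, against 119, 122 and 151 in the 7 dpa libraries (log2 change 2.25, SE 0.39, adjusted p = 0.00358), and 0.0735 with library set as a covariate. Of the 89, 11 had an unadjusted p under 0.05, against 1944 of all 10234 genes tested. Ribosomal protein genes have near-identical copies and pseudogenes, so the reads of rps27.2 may have been divided among them. Nuclear genes of oxidative phosphorylation gave no call among 90 in limma, with 2 at an unadjusted p under 0.05 and a median log2 change of 0.06, but -0.14 on the deposited values and -0.23 on the rescaled values. cox7c, a cytochrome oxidase subunit, averaged 509.7 ± 58.8 at 21 dpa and 690.3 ± 402 at 7 dpa (SD, n = 3 each).

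The largest decrease among named genes was in sterol metabolism. Enzymes of the Cyp8b family are sterol 12-alpha-hydroxylases, best known for bile acid synthesis in the liver. cyp8b3 had 6.61, 5.99 and 9.41 scaled TPM in the 21 dpa libraries, against 136, 51.5 and 194 in the 7 dpa libraries (log2 change -3.77, SE 0.36, adjusted p = 3.57e-05). cyp8b2 had 4.81, 3.15 and 4.79 scaled TPM at 21 dpa, against 44.9, 19.8 and 55.0 at 7 dpa (log2 change -2.86, SE 0.36, adjusted p = 0.000327). cyp8b1 had 1.11, 0.871 and 0.795 scaled TPM at 21 dpa, against 6.50, 2.91 and 8.34 at 7 dpa (log2 change -1.76, SE 0.27, adjusted p = 0.00157). In all 3 genes 7 dpa replicate 2, the one 7 dpa library in set B, was the lowest at 7 dpa, and the adjusted p with library set as a covariate was 0.00188, 0.0359 and 0.122. RefSeq places the 3 genes side by side, and how reads were divided between such copies is not known. Liver markers summed to 0.154 to 1.397 scaled TPM at 21 dpa and 0.129 to 0.363 at 7 dpa, so the defining markers of that tissue were at or near 0. hmgcra, the rate-limiting enzyme of cholesterol synthesis, had 0.79, 1.73 and 1.74 scaled TPM at 21 dpa, against 9.19, 9.02 and 5.999 at 7 dpa (log2 change -1.91, adjusted p = 0.00273). Of 31 cholesterol and bile acid genes tested, 7 passed (22.6%), each lower, with a median log2 change of -0.46. Of these 7, cyp8b3 and cyp8b2 passed with library set as a covariate, and hmgcra had an adjusted p of 0.0504. Under that covariate 3 of the 31 genes passed, each lower. The LDL receptor gene ldlra (-1.25) and tm7sf2 (-0.83) lost their calls without single libraries (adjusted p up to 0.139 without 7 dpa replicate 1 and 0.145 without 21 dpa replicate 1). They had an adjusted p of 0.187 and 0.594 with library set as a covariate.

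Another gene of sterol metabolism rose. ch25h, for cholesterol 25-hydroxylase, had 17.6, 16.9 and 6.83 scaled TPM in the 21 dpa libraries, against 1.09, 0.988 and 1.36 in the 7 dpa libraries (log2 change 2.69, SE 0.28, adjusted p = 8.55e-05), and 0.00647 with library set as a covariate. Replicate 3 was the lowest of its 21 dpa libraries and still above every 7 dpa library. entpd8, an enzyme that breaks down nucleotides outside cells, had 1.44, 1.15 and 1.197 scaled TPM at 21 dpa, against 34.1, 3.65 and 38.5 at 7 dpa (log2 change -3.04, SE 0.60, adjusted p = 0.00824). Here the 7 dpa mean rested on replicates 1 and 3, the set A libraries, and with library set as a covariate the adjusted p was 0.326. The organic solute transporter gene slc51a, which exports bile acids and steroids, showed the same order at 7 dpa, with 8.99, 6.75 and 9.24 scaled TPM at 21 dpa, against 39.8, 12.5 and 72.3 at 7 dpa (log2 change -1.89, adjusted p = 0.0364, and 0.717 with library set as a covariate). Among all 27 cytochrome P450 genes tested, listed by symbol after the values had been seen, 4 were higher and 4 lower (29.6%, median log2 change 0.12, but -0.0048 on the deposited values and -0.10 on the rescaled values). The retinoic acid-degrading enzyme gene cyp26a1 was lower (3.46, 4.33 and 5.41 scaled TPM at 21 dpa, against 6.81, 8.39 and 9.35 at 7 dpa), with an adjusted p of 0.0142 that was 0.0654 without 21 dpa replicate 1 and 0.152 with library set as a covariate. cyp1d1 was higher, with 1.93, 1.67 and 2.21 scaled TPM at 21 dpa, against 0.571, 0.469 and 0.349 at 7 dpa (log2 change 1.005, adjusted p = 0.00275, and 0.0752 with library set as a covariate).

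Targets of the glucocorticoid receptor were mostly lower among those that passed. fkbp5, a chaperone of the receptor and a standard target gene, had 20.02, 33.2 and 57.2 scaled TPM in the 21 dpa libraries, against 196, 173 and 176 in the 7 dpa libraries (log2 change -2.39, SE 0.31, adjusted p = 0.000456). All 21 dpa libraries were below all 7 dpa libraries, and replicate 3 was the highest at 21 dpa. klf9 had 7.33, 14.4 and 25.2 scaled TPM at 21 dpa, against 66.2, 63.1 and 38.6 at 7 dpa (log2 change -1.89, SE 0.36, adjusted p = 0.00699). hsd11b2, whose enzyme inactivates cortisol, had 3.24, 3.86 and 4.38 scaled TPM at 21 dpa, against 12.1, 15.98 and 16.1 at 7 dpa (log2 change -1.70, SE 0.20, adjusted p = 0.000256). The glutamine synthetase gene glula had 13.3, 14.5 and 24.96 scaled TPM at 21 dpa, against 59.8, 53.6 and 54.8 at 7 dpa (log2 change -1.67, adjusted p = 0.00123). Of 21 genes in the list, 6 fell and 2 rose (38.095%), with a median log2 change of -0.18. The genes that rose were dusp1, given above, and pdk4, a kinase that restrains pyruvate use, with 1.25, 1.69 and 1.13 scaled TPM at 21 dpa, against 0.326, 0.322 and 0.272 at 7 dpa (log2 change 0.84, adjusted p = 0.00185). glulb and ddit4 fell, with calls lost without single libraries (adjusted p up to 0.0889 without 21 dpa replicate 2 and 0.106 without 7 dpa replicate 1). When library set was a covariate, fkbp5 and hsd11b2 passed (adjusted p = 0.0301 and 0.0132), and klf9, glula and pdk4 did not (adjusted p = 0.0852, 0.0535 and 0.0605). glulb and ddit4 had an adjusted p of 0.397 and 0.192, and dusp1 at 0.266.

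The circadian clock gene nr1d2a, which encodes a Rev-erb repressor, had 12.1, 17.1 and 26.0 scaled TPM at 21 dpa, against 101, 92.5 and 56.4 at 7 dpa (log2 change -2.14, SE 0.32, adjusted p = 0.00123). bhlhe40, a clock-linked repressor, had 94.6, 109 and 76.8 scaled TPM at 21 dpa, against 30.7, 32.9 and 25.3 at 7 dpa (log2 change 1.62, SE 0.18, adjusted p = 0.000138). Both held with library set as a covariate (adjusted p = 0.0338 and 0.0208). Of 32 clock genes tested, 3 fell and 1 rose (12.5%, median log2 change -0.03). nfil3 and nfil3-5 made up the remaining falls and lost their calls without single libraries (adjusted p up to 0.191 without 7 dpa replicate 2 and 0.0856 without 21 dpa replicate 2). They had an adjusted p of 0.118 and 0.24 with library set as a covariate. In the heat shock and chaperone list 4 of 23 genes passed (17.4%), each lower, with a median log2 change of -0.17. They were the endoplasmic reticulum chaperone gene hspa5 (8.84, 13.6 and 14.1 scaled TPM at 21 dpa, against 29.1, 30.4 and 18.4 at 7 dpa), hspd1, hspa4a and dnajb1a. None of these calls held with every library left out, with adjusted p of up to 0.111 without 7 dpa replicate 1, 0.0755 without 7 dpa replicate 1, 0.124 without 7 dpa replicate 1 and 0.119 without 7 dpa replicate 1. These 4 had an adjusted p of 0.12 to 0.301 with library set as a covariate.

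Interferon-stimulated genes, the antiviral programme that type I interferon switches on, were lower. Of 19 tested, 7 passed (36.8%), each of them lower at 21 dpa, and 2 had a positive log2 change. The list median was -0.72. The antiviral GTPase gene mxe had 0.366, 0.183 and 0.335 scaled TPM in the 21 dpa libraries, against 2.93, 1.59 and 1.93 in the 7 dpa libraries (log2 change -1.26, SE 0.20, adjusted p = 0.00168). ifit8 had 0.669, 0 and 0.287 scaled TPM at 21 dpa, against 2.73, 1.94 and 2.21 at 7 dpa (log2 change -1.35, SE 0.25, adjusted p = 0.00573). irf7, the transcription factor that amplifies the response, had 7.38, 8.53 and 9.74 scaled TPM at 21 dpa, against 25.4, 13.7 and 26.3 at 7 dpa (log2 change -1.21, SE 0.27, adjusted p = 0.015). rsad2, stat1b, mxa and gbp1 also fell. Most of these genes were at low levels. The calls of irf7, rsad2, stat1b, mxa and gbp1 were lost without single libraries (adjusted p up to 0.0787 without 7 dpa replicate 1, 0.0881 without 7 dpa replicate 1, 0.123 without 7 dpa replicate 1, 0.148 without 7 dpa replicate 1 and 0.127 without 21 dpa replicate 1). When library set was a covariate, none of the 7 passed, with 0.109 for mxe and 0.159 for ifit8, 0.251 to 0.506 for the others, and a list median of -0.51. Antigen presentation genes gave no call among 25, with 1 at an unadjusted p under 0.05. cd74a, the class II invariant chain, averaged 4711 ± 946 at 21 dpa and 5631 ± 2341 at 7 dpa (SD, n = 3 each).

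In the osteoclast list, acp5a and ca2 fell. Osteoclasts resorb bone with tartrate-resistant acid phosphatase, cathepsin K and carbonic anhydrase II. acp5a, for the phosphatase, had 5.73, 3.33 and 2.94 scaled TPM in the 21 dpa libraries, against 52.7, 45.4 and 88.9 in the 7 dpa libraries (log2 change -3.64, SE 0.66, adjusted p = 0.00465). Every 7 dpa library was above every 21 dpa library, and the adjusted p with library set as a covariate was 0.139. ca2, for the anhydrase, had 12.02, 11.7 and 12.1 scaled TPM at 21 dpa, against 34.7, 29.3 and 38.2 at 7 dpa (log2 change -1.43, SE 0.24, adjusted p = 0.0031, and 0.128 with library set as a covariate). ctsk, for the cathepsin, had 115, 122 and 167 scaled TPM at 21 dpa, against 221, 193 and 424 at 7 dpa but did not pass (log2 change -0.97, adjusted p = 0.305). csf1a, a growth factor of the macrophage and osteoclast lineage, is the higher member of this list (7.68, 11.4 and 9.66 scaled TPM at 21 dpa, against 5.07, 5.87 and 5.84 at 7 dpa, adjusted p = 0.0223, and 0.289 with library set as a covariate). In all, 2 of 14 osteoclast genes fell and 1 rose (21.4%, median log2 change -0.15). Of the 14, 5 had a positive log2 change, among them acp5b, a paralogue of acp5a (log2 change 0.20, adjusted p = 0.668). Macrophage genes gave no call among 27 in limma, with 1 at an unadjusted p under 0.05.

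Most osteoblast genes did not pass the test. phex, an endopeptidase of mineralising cells, had 5.23, 4.38 and 4.23 scaled TPM at 21 dpa, against 15.001, 12.9 and 13.3 at 7 dpa (log2 change -1.39, SE 0.21, adjusted p = 0.00123). enam, for the enamel matrix protein enamelin, had 4.88, 7.13 and 4.07 scaled TPM at 21 dpa, against 13.4, 20.1 and 25.9 at 7 dpa (log2 change -1.69, SE 0.37, adjusted p = 0.0155). They were the 2 calls among 25 genes tested (8%, against 5.91% of all genes), each lower, with a list median of -0.11. enam lost its call without single libraries (adjusted p up to 0.0583 without 21 dpa replicate 3), and with library set as a covariate phex had an adjusted p of 0.0567 and enam at 0.167. The late osteoblast gene bglap, for osteocalcin, had 7124, 4009 and 5559.9 scaled TPM at 21 dpa, against 3336, 3338 and 10928 at 7 dpa (log2 change 0.13, adjusted p = 0.935). The summed osteoblast markers were 4280 to 7499 at 21 dpa and 3701 to 11515 at 7 dpa, and bglap made up most of that sum in each library. The marker col10a1a had 161, 134 and 89.3 scaled TPM at 21 dpa, against 197, 195 and 238 at 7 dpa (log2 change -0.74, adjusted p = 0.0582). At an unadjusted p under 0.05 in limma, 6 of the 25 genes were lower and 1 higher, against 1944 of all 10234 genes in either direction. The lineage regulator sp7 was near 1 scaled TPM in every library of both groups.

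Fibrillar collagens were lower in level at 21 dpa without passing the test. col1a1a had 256, 357 and 346 scaled TPM at 21 dpa, against 603, 630.1 and 391 at 7 dpa (log2 change -0.74, adjusted p = 0.211). col1a1b had 233, 302 and 285 scaled TPM at 21 dpa, against 388, 415 and 336 at 7 dpa (log2 change -0.48, adjusted p = 0.323). Among 18 collagen chain genes no call was made in limma, and 6 had an unadjusted p under 0.05, against 1944 of all 10234 genes. Of the 18, 4 had a positive log2 change, and the median was -0.37. Enzymes and chaperones that modify collagen gave 3 calls among 21 (14.3%, median log2 change -0.12), each lower. serpinh1a, for the collagen chaperone Hsp47, had 11.6, 10.2 and 10.1 scaled TPM at 21 dpa, against 16.7, 17.3 and 18.1 at 7 dpa (log2 change -0.66, adjusted p = 0.0129). plod2, a lysyl hydroxylase, had 2.90, 2.07 and 3.83 scaled TPM at 21 dpa, against 6.74, 7.68 and 4.89 at 7 dpa (log2 change -0.93, adjusted p = 0.0136). p4ha2, a prolyl hydroxylase, had 7.08, 9.05 and 8.67 scaled TPM at 21 dpa, against 15.1, 17.3 and 13.4 at 7 dpa (log2 change -0.81, adjusted p = 0.0474). Each was lost without 1 or more libraries (adjusted p up to 0.0525 without 21 dpa replicate 2, 0.0688 without 21 dpa replicate 2 and 0.165 without 7 dpa replicate 2). The crosslinking enzyme gene loxl2a was the single call of 16 microfibril and elastic fibre genes (6.25%, against 5.91% of all genes). Its log2 change was -1.16 (list median -0.13), and its call was lost as well (adjusted p up to 0.106 without 7 dpa replicate 1). timp2b was the single call of 8 Mmp and Timp genes (12.5%), with a log2 change of -0.995 (list median -0.09). That call was also lost (adjusted p up to 0.111 without 7 dpa replicate 1). These 5 calls had an adjusted p of 0.0626 to 0.328 with library set as a covariate. The dermal fibroblast marker pdgfra, which is not a matrix gene, overlapped between the groups. It had 5.03, 6.46 and 6.88 scaled TPM at 21 dpa, against 6.01, 6.88 and 3.96 at 7 dpa. Summed dermal fibroblast markers, 3 of whose 4 genes are matrix genes, were 942 to 1018 at 21 dpa and 1317 to 1516 at 7 dpa. Their part in these results was not tested.

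One matrix gene rose by a large factor. prg4a encodes lubricin, the lubricating proteoglycan of joints, and had 59.1, 77.0 and 54.0 scaled TPM in the 21 dpa libraries, against 6.50, 9.47 and 4.62 in the 7 dpa libraries (log2 change 3.06, SE 0.28, adjusted p = 2.12e-05). Its call held with library set as a covariate (adjusted p = 0.00448). No other member of the list of 9 small leucine-rich proteoglycans and lubricin passed, and the list median was -0.11. Its paralogue prg4b, in the same list, had a log2 change of the opposite sign (-0.51, adjusted p = 0.0723).

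In the epidermis a pair of keratins fell. krt93 had 4.03, 6.004 and 3.62 scaled TPM in the 21 dpa libraries, against 33.4, 35.8 and 31.6 in the 7 dpa libraries (log2 change -2.66, SE 0.21, adjusted p = 6.53e-06). krt94 had 33.2, 36.4 and 26.1 scaled TPM at 21 dpa, against 123, 139 and 158 at 7 dpa (log2 change -2.10, SE 0.26, adjusted p = 0.000307). The genes are neighbours in RefSeq, and reads shared between them cannot be apportioned here. Both calls held with library set as a covariate (adjusted p = 0.00101 and 0.0221). The desmosomal cadherin gene dsc2l had 20.3, 39.7 and 35.7 scaled TPM at 21 dpa, against 109, 89.96 and 62.5 at 7 dpa (log2 change -1.44, adjusted p = 0.0162), and its call was lost without single libraries (adjusted p up to 0.0864 without 7 dpa replicate 1) and with library set as a covariate (adjusted p = 0.165). These were the 3 calls among 36 genes of epidermal layers and adhesion (8.33%, against 5.91% of all genes, median log2 change -0.12). The 2 keratins were the calls among 12 keratin genes (16.7%, against 5.91% of all genes, median log2 change -0.14). The main keratin of basal epidermis, krt5, had 2268, 3697 and 2908 scaled TPM at 21 dpa, against 3539, 4398 and 2979 at 7 dpa (log2 change -0.31, adjusted p = 0.609), and summed epidermal markers were 4110 to 5484 at 21 dpa and 4759 to 5910 at 7 dpa. Claudins, the tight junction proteins, gave no call among 17 in limma, with 4 at an unadjusted p under 0.05, against 1944 of all 10234 genes. Their median log2 change was 0.16, but -0.06 on the rescaled values.

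Of 17 Schwann cell and nerve genes tested, 4 rose and 1 fell (29.4%, median log2 change 0.26). Of these 5 calls, 3 held with each library left out and 1 with library set as a covariate. Schwann cells wrap fin nerves in myelin, of which Mbp is a structural protein. mbpb had 59.0, 47.6 and 55.5 scaled TPM at 21 dpa, against 23.5, 19.96 and 38.8 at 7 dpa (log2 change 1.004, adjusted p = 0.0407). Its call was lost without single libraries (adjusted p up to 0.168 without 7 dpa replicate 2) and with library set as a covariate (adjusted p = 0.101). The regulator gene egr2a, counted among the immediate early genes above, also rose. The tubulin gene tubb5 was lower (1.26, 1.81 and 1.37 scaled TPM at 21 dpa, against 4.85, 5.21 and 2.90 at 7 dpa, adjusted p = 0.00907, and 0.0528 with library set as a covariate). The neural crest regulator sox10 did not separate the groups, with 0.802, 2.12 and 1.79 scaled TPM at 21 dpa, against 1.68, 2.56 and 0.973 at 7 dpa.

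Among pigment cells, melanophore genes gave no call among 13 in limma, with 6 at an unadjusted p under 0.05, against 1944 of all 10234 genes. Their median log2 change was 0.26. fhl2a was the single call among 21 iridophore and xanthophore genes (4.76%, against 5.91% of all genes). Its log2 change was 0.69 (list median 0.34, adjusted p of up to 0.0908 without 7 dpa replicate 3). The melanin synthesis gene tyrp1b averaged 23.6 ± 4.31 at 21 dpa and 22.2 ± 0.359 at 7 dpa (SD, n = 3 each). In the insulin-like growth factor list, igf2a rose (9.76, 10.5 and 6.85 scaled TPM at 21 dpa, against 4.95, 3.76 and 4.04 at 7 dpa) and igfbp6a and stc2a fell, among 19 genes tested (15.8%, median log2 change -0.06). The binding protein gene igfbp6a had 0.348, 0 and 0.265 scaled TPM at 21 dpa, against 1.97, 1.62 and 3.15 at 7 dpa (log2 change -1.41, adjusted p = 0.000543, and 0.0528 with library set as a covariate), and igf2a lost its call without single libraries (adjusted p up to 0.0616 without 21 dpa replicate 2). In glycolysis, ldhba and pdk4 were higher and pgam1a lower among 20 genes (15%, against 5.91% of all genes). The list median log2 change was 0.01, but -0.19 on the deposited values, -0.28 on the rescaled values and -0.11 with library set as a covariate. The calls of ldhba and pgam1a were lost without single libraries (adjusted p up to 0.116 without 21 dpa replicate 1 and 0.155 without 21 dpa replicate 2). fhl2a, igf2a, ldhba and pgam1a had an adjusted p of 0.108 to 0.439 with library set as a covariate.

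The replication genes that passed were lower at 21 dpa, at low levels in both groups. Of 29 genes of DNA replication and mitosis, 5 passed (17.2%), each lower, 3 had a positive log2 change, and the median was -0.27. The replicative helicase genes mcm5 and mcm6 had 1.76, 0.78 and 1.36 scaled TPM at 21 dpa, against 3.96, 3.86 and 3.21 at 7 dpa (log2 change -1.04, SE 0.17, adjusted p = 0.0025) and 1.36, 1.28 and 1.36 scaled TPM at 21 dpa, against 3.42, 4.22 and 2.11 at 7 dpa (log2 change -0.83, adjusted p = 0.0147). The cyclin genes ccne2 and ccnb1 had 0.574, 0.64 and 0.876 scaled TPM at 21 dpa, against 1.34, 1.98 and 1.51 at 7 dpa (log2 change -0.62, adjusted p = 0.0337) and 1.68, 0.7 and 1.70 scaled TPM at 21 dpa, against 2.56, 3.47 and 3.45 at 7 dpa (log2 change -0.84, adjusted p = 0.0462). rrm1, a subunit of ribonucleotide reductase, had 3.16, 3.90 and 3.67 scaled TPM at 21 dpa, against 6.92, 6.18 and 4.35 at 7 dpa (log2 change -0.56, adjusted p = 0.0492). mcm5 alone kept its call with each library left out (adjusted p = 0.0528 with library set as a covariate), and the highest adjusted p was 0.0712 without 7 dpa replicate 2 for mcm6, 0.136 without 7 dpa replicate 2 for ccne2, 0.191 without 21 dpa replicate 2 for ccnb1 and 0.211 without 7 dpa replicate 1 for rrm1. The proliferation marker mki67 had 0.823, 0.739 and 0.878 scaled TPM at 21 dpa, against 1.14, 1.49 and 0.929 at 7 dpa (log2 change -0.26, adjusted p = 0.425). pcna, the sliding clamp of replication, averaged 62.0 ± 4.83 at 4 dpa, 26.7 ± 4.92 at 7 dpa and 23.3 ± 4.02 at 21 dpa, and top2a, which untangles mitotic chromosomes, 5.08 ± 0.565, 0.824 ± 0.368 and 0.636 ± 0.0344 at the same times (SD, n = 3 each). Once library set was fitted as well, mcm6 passed (adjusted p = 0.0357), and ccne2, ccnb1 and rrm1 had an adjusted p of 0.104 to 0.243.

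No call was made in the lists of several other cell types. Their counts at an unadjusted p under 0.05 stand against 1944 of all 10234 genes in the same limma fit. Endothelial genes (26 tested, 4 at an unadjusted p under 0.05, median log2 change 0.02, but -0.12 on the deposited values, -0.23 on the rescaled values and -0.06 with library set as a covariate), neutrophil genes (20 tested, 3, median log2 change -0.02, but 0.01 with upper-quartile scaling and 0.27 with library set as a covariate) and lymphocyte genes (14 tested, 1, median log2 change 0.20) gave no call in limma. Skeletal muscle (5 tested, 1, median log2 change 0.06, but -0.06 on the deposited values and -0.19 on the rescaled values), erythrocyte (7 tested, 1, median log2 change -0.12, but 0.24 with library set as a covariate) and liver and intestine genes (5 tested, 0, median log2 change 0.28) gave none either. Haemoglobin transcripts varied most within a group. Summed erythrocyte markers were 68.9 to 90.6 at 21 dpa and 7.05 to 272 at 7 dpa, and 7 dpa replicate 2 was the lowest. Within set B alone, that library stands for 7 dpa. There the log2 changes of hbba1 and hbaa1 were 3.09 and 3.25, against 0.21 and 0.50 in the main fit, so these changes rest on a single library.

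Further genes were among the 15 largest changes in each direction without belonging to a list above. plekhf1, for an endosomal protein, had 57.6, 27.1 and 19.7 scaled TPM at 21 dpa, against 6.18, 3.61 and 7.94 at 7 dpa (log2 change 2.28, SE 0.36, adjusted p = 0.00177). tcima, a small regulatory protein gene, had 48.6, 51.0 and 78.6 scaled TPM at 21 dpa, against 12.2, 10.6 and 12.01 at 7 dpa (log2 change 2.23, SE 0.30, adjusted p = 0.000595). Both held with library set as a covariate (adjusted p = 0.0171 and 0.0253). The microRNA gene mir7148 was listed at 0 in all 3 libraries at 21 dpa, against 6.65, 9.32 and 3.68 scaled TPM in the 7 dpa libraries. Its adjusted p of 0.043 was 0.142 without 7 dpa replicate 2. It was 0.197 with library set as a covariate.

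The 14 dpa libraries give the levels between these times. All 14 and 21 dpa libraries were in set B and 2 of the 3 libraries at 7 dpa in set A, so the step from 7 to 14 dpa coincides in part with the change of set, and the step from 14 to 21 dpa does not. The 14 dpa mean lay between the 7 and 21 dpa means in 242 of the 294 higher genes and in 247 of the 311 lower genes. By 14 dpa a median of 61.8% of the log2 change was complete in the higher genes and 65.1% in the lower genes. These genes were picked for a difference between 7 and 21 dpa, which in itself favours a 14 dpa mean between those levels. No share over all genes tested is given beside these values, so they describe the called genes only. A contrast of the 21 and 7 dpa means against the 14 dpa mean tested departure from an even course, and 131 of the 10234 genes (1.28%) passed it. Among the 605 changed genes 34 passed. Of the 20 that were higher at 21 dpa, 12 changed mainly after 14 dpa and 8 mainly before, and of the 14 that were lower, 7 changed after and 7 before. These counts and shares come from the fit without library set. With it as a covariate 64 genes passed the departure test, and 16 of the 34 did, with 3 of the 12 late and 4 of the 8 early ones among the higher genes and 6 of the 7 late and 3 of the 7 early ones among the lower genes.

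Late changes fell into several of the groups described above. foxq1a averaged 4.51 ± 0.339 at 7 dpa, 4.21 ± 0.944 at 14 dpa and 49.2 ± 7.29 at 21 dpa (SD, n = 3 each), a departure of 3.37 on the log2 scale (adjusted p = 0.000695). ptgs2b averaged 2.05 ± 0.753, 3.15 ± 0.059 and 28.3 ± 6.90 at these times (departure 2.32, adjusted p = 0.00528). Among the lower genes cyp8b2 averaged 39.9 ± 18.1 at 7 dpa, 69.2 ± 14.2 at 14 dpa and 4.25 ± 0.955 at 21 dpa (departure -4.62, adjusted p = 0.00166). slc51a followed the same course, with 41.5 ± 29.9, 119.7 ± 24.4 and 8.33 ± 1.37 (departure -5.48, adjusted p = 0.00494). These 4 departures, and that of cyp8b1 (-3.51, adjusted p = 0.00166), held with each library left out and with library set as a covariate. Those of fosb, dusp2, foxq1b, hbegfb, cyp8b3 and entpd8 passed as well (0.0191, 0.0405, 0.0247, 0.0344, 0.0332 and 0.0342) but were lost without single libraries, up to 0.119 without 14 dpa replicate 3, 0.213 without 14 dpa replicate 2, 0.147 without 14 dpa replicate 1, 0.24 without 14 dpa replicate 2, 0.211 without 14 dpa replicate 2 and 0.18 without 14 dpa replicate 2. Once library set was fitted as well, cyp8b3 and entpd8 passed (adjusted p = 0.000799 and 0.000119), and fosb, dusp2, foxq1b and hbegfb had an adjusted p of 0.0765 to 0.183. On deposited TPM the departures of foxq1a and ptgs2b did not pass (adjusted p = 0.0517 and 0.269). Those of cyp8b2, slc51a and cyp8b1 passed there (0.00103 to 0.00118).

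Early changes were larger from 7 to 14 dpa than from 14 to 21 dpa. pik3ip1, for a negative regulator of PI3 kinase, averaged 2.56 ± 0.531 at 7 dpa, 18.7 ± 2.38 at 14 dpa and 10.8 ± 2.87 at 21 dpa (SD, n = 3 each), with a departure of -3.22 (adjusted p = 0.00113) that held with each library left out. klf11a averaged 3.67 ± 0.731, 15.4 ± 2.91 and 20.98 ± 1.03 (departure -1.37, adjusted p = 0.0314, and 0.221 without 14 dpa replicate 2). The mitochondrial carrier gene slc25a25a was lower from 14 dpa, with 9.16 ± 0.948, 1.53 ± 0.167 and 3.495 ± 1.71 (adjusted p = 0.00559, and 0.0518 without 14 dpa replicate 2). For mthfd2 and krt93 the departure did not pass the threshold. mthfd2 averaged 53.4 ± 2.66, 11.5 ± 0.945 and 5.21 ± 1.1997 (adjusted p = 0.102), and krt93 averaged 33.6 ± 2.13, 9.22 ± 1.75 and 4.55 ± 1.28 (adjusted p = 0.343). Once library set was fitted as well, the departures of pik3ip1 and slc25a25a passed (adjusted p = 0.00898 and 0.0229), and that of klf11a had an adjusted p of 0.0601. On deposited TPM the departure of pik3ip1 passed (adjusted p = 0.00103), and those of slc25a25a and klf11a did not (0.129 each).

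**Figure D4:**
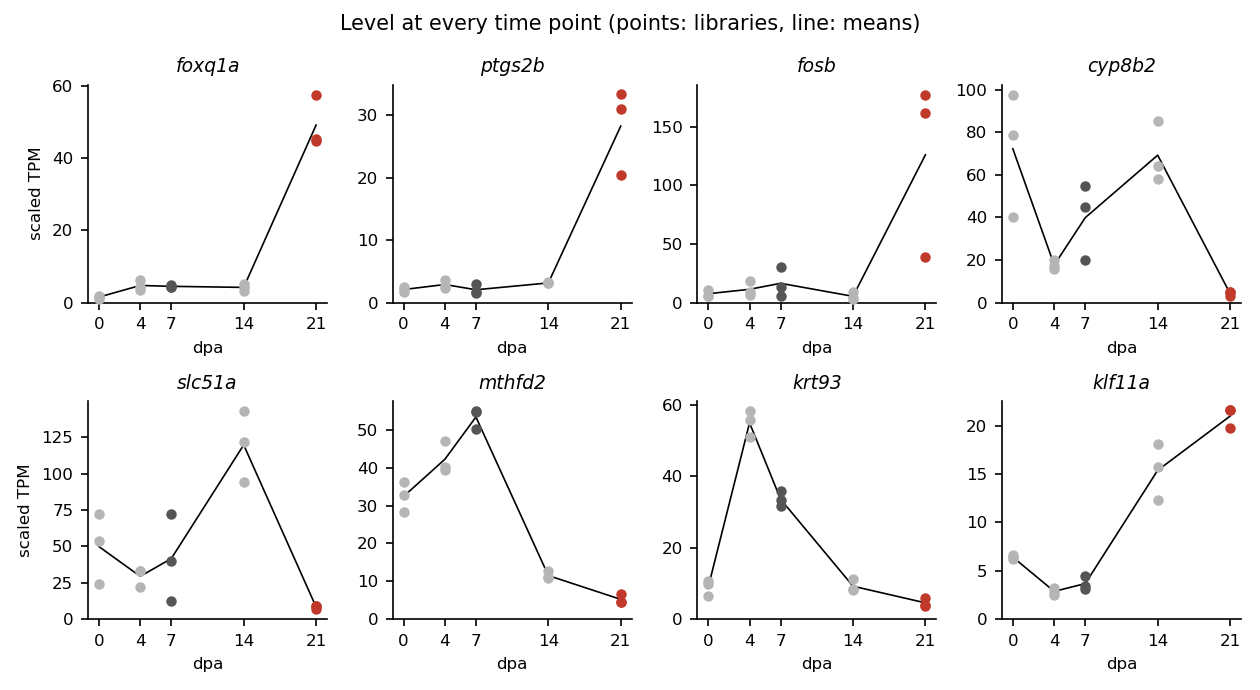
Scaled TPM of 8 genes at 0, 4, 7, 14 and 21 dpa, with a point for each library (red at 21 dpa, dark grey at 7 dpa, light grey at the other times) and a line through the means. foxq1a, ptgs2b and fosb rise after 14 dpa, cyp8b2 and slc51a fall after 14 dpa, klf11a is already high at 14 dpa, and mthfd2 and krt93 step down through 14 dpa.

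The 0 dpa libraries give the levels at the time of amputation. jdp2b averaged 323 ± 184 scaled TPM at 21 dpa and 12.8 ± 5.52 at 0 dpa, foxq1a 49.2 ± 7.29 at 21 dpa and 1.51 ± 0.523 at 0 dpa, and ptgs2b 28.3 ± 6.90 at 21 dpa and 2.09 ± 0.422 at 0 dpa (SD, n = 3 each). At 0, 4, 7 and 21 dpa, mthfd2 averaged 32.4 ± 3.997, 42.2 ± 4.21, 53.4 ± 2.66 and 5.21 ± 1.1997. krt93 averaged 8.90 ± 2.25, 55.0 ± 3.80, 33.6 ± 2.13 and 4.55 ± 1.28 at the same times, and acp5a averaged 4.119 ± 1.09, 43.7 ± 33.8, 62.4 ± 23.3 and 3.9997 ± 1.51. prg4a, by contrast with these falls, averaged 83.0 ± 30.1, 2.78 ± 0.584, 6.86 ± 2.45 and 63.4 ± 12.1. The 0 and 4 dpa libraries were all in set A and the 21 dpa libraries all in set B, so these levels are given without a test.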

How the data were processed

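Total RNA from pooled fin tissue was reverse transcribed, amplified by PCR and tagmented with Tn5, per the labels' protocols, and without molecular identifiers. The deposited TPM values (14836 genes, 15 libraries, each summing to 1000000) came from Salmon 1.4.0 after Trim Galore 0.6.7 with cutadapt 3.5, on the danRer11 build, per the submitters' processing notes, which give neither options nor annotation. TPM keeps no absolute depth, so no counting interval is given. The table pairs no symbol with coordinates, and 14687 symbols matched RefSeq (GRCz12tu) symbols or synonyms, which were used for names and neighbourhood only. The neighbours named above moved in the same direction, but other called neighbours did not. acp5a fell and ptger1a rose 2 protein-coding genes apart, and cxcr4a rose and mcm6 fell at the same distance. No share of called neighbours over all genes is given, so shared regulation of neighbours was not tested.

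Here the rRNA gene zgc:158463 was dropped, the rest were scaled by the median of ratios over 9909 genes, and genes were kept where 3 or more libraries had 1 TPM or more. log2(scaled TPM + 1) was fitted in limma 3.58.1 (R 4.3.3) with a mean per time point over all 15 libraries, an intensity trend and Benjamini-Hochberg adjustment, two-sided, threshold 0.05, after the fit was tested on simulated data. The pseudocount understates changes of low genes. A second contrast set the 21 and 7 dpa means against the 14 dpa mean. The study's methods text was not used here, so the test was chosen for the unit.

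Library sets were found from ratios of TPM values up to 1, which cluster sharply between libraries of one set. The fullest window of the ratio held 5.33 to 21.8% of genes in 49 pairs within a set and 1.88 to 6.91% in 56 pairs between sets, so the ranges overlap and the grouping rests on all pairs together.

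Named were the 15 genes with the largest change in each direction among called genes without overlap, leaving out symbols with a colon or starting with LOC, the called list members, and for lists without a call the 2 members with the highest level. Other genes are named where a comparison turned on them. The members and lists were chosen with earlier results of these data known, and 9 lists were added after seeing these values, as stated where used. Replicate numbers come from the library names. Some members of the lists are not reported here by name.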

Additional observations from a re-analysis of the deposited data

How the results depend on the processing

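No gene followed through the alternatives (208) changed direction where called. Of the 208, 183 were called in the main fit, and nearly all called genes had libraries without overlap, so a reversal was unlikely from the start. Of these 183, 92 kept the call with each library left out, 49 with library set as a covariate and 153 with the replicate block. The 605 genes that differed between 21 and 7 dpa became 79 on deposited TPM, 270 on values rescaled without the rRNA gene, 191 with only these 6 libraries fitted, 108 with library set as a covariate, 138 within set B alone, where 7 dpa has 1 library, assumed to vary like the other groups, and 4 on deposited TPM with library set as a covariate, an alternative added after seeing the data. All 605 kept their sign with library set as a covariate, but the outcome was nearly fixed in advance. That fit sets the 21 dpa mean against 7 dpa replicate 2. The libraries of the compared time points did not overlap in 291 of the 294 higher and 310 of the 311 lower genes. Leaving out a library gave 266 to 696 genes, the lowest without 7 dpa replicate 1, and 307, 353 and 362 without 21 dpa replicate 2, 7 dpa replicate 2 and 21 dpa replicate 1. The 131 genes departing from an even course became 69 on deposited TPM, 69 on rescaled values, 64 with library set as a covariate and 50 with that covariate on deposited TPM, and 37 to 168 with a library left out, where leaving out 14 dpa replicate 2 gave the lowest. With the replicate block 485 and 113 genes passed. The labels do not say whether the numbers pair the pools. Deviations of same-numbered 21 and 7 dpa libraries correlated at -0.475, 0.347 and -0.177, and those of differently numbered ones at -0.504 to 0.630. With 3 pools per group, and 7 dpa libraries of both sets, these values cannot decide it. The difference in rRNA share, -2.20 points, ranged from -19.4 to 6.58, and that in scaling factor, -0.0990, from -0.221 to 0.0550. The causes were not tested. Relative depth of the libraries and 3 pools per group limit precision.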

Other observations

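Outside the lists, genes that kept their call with each library left out and with library set as a covariate included signalling and wound-associated genes, picked here after their values were seen. arg2, for the arginine-degrading enzyme arginase, had 45.4, 44.1 and 77.9 scaled TPM at 21 dpa, against 16.5, 12.5 and 12.4 at 7 dpa (log2 change 1.90, SE 0.21, adjusted p = 0.000148). The Egf receptor ligand gene hbegfb had 4.96, 6.83 and 8.31 scaled TPM at 21 dpa, against 1.48, 1.03 and 2.31 at 7 dpa (log2 change 1.57, adjusted p = 0.00267), and the ephrin ligand gene efna1a 6.51, 7.52 and 7.13 scaled TPM at 21 dpa, against 1.75, 1.94 and 1.99 at 7 dpa (log2 change 1.47, adjusted p = 0.000148). snai3, a zinc finger gene of the Snail family, had 4.43, 4.22 and 2.05 scaled TPM at 21 dpa, against 0.223, 0.327 and 0.112 at 7 dpa (log2 change 1.86, adjusted p = 0.000263). The smooth muscle actin gene acta2, which RefSeq places next to ch25h, had 6.28, 6.77 and 6.18 scaled TPM at 21 dpa, against 2.21, 2.16 and 2.86 at 7 dpa (log2 change 1.12, adjusted p = 0.000881), and edn2, for an endothelin, 4.32, 4.91 and 4.13 scaled TPM at 21 dpa, against 1.57, 1.22 and 2.32 at 7 dpa (log2 change 1.03, adjusted p = 0.00337). noxo1a, for an organiser subunit of a superoxide-producing NADPH oxidase, had 30.3, 26.8 and 40.8 scaled TPM at 21 dpa, against 8.10, 8.81 and 7.35 at 7 dpa (log2 change 1.87, adjusted p = 0.00042).

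Among the lower genes of the same kind, hif1al had 8.38, 11.8 and 9.31 scaled TPM at 21 dpa, against 44.3, 38.2 and 24.8 at 7 dpa (log2 change -1.74, SE 0.27, adjusted p = 0.0014). The PI3 kinase regulatory subunit gene pik3r3a had 6.92, 5.73 and 7.08 scaled TPM at 21 dpa, against 23.9, 22.6 and 21.6 at 7 dpa (log2 change -1.65, adjusted p = 2.79e-05), at tight values in both groups. wee1, for the kinase that delays mitotic entry, had 1.19, 1.15 and 1.15 scaled TPM at 21 dpa, against 4.22, 4.19 and 3.43 at 7 dpa (log2 change -1.19, adjusted p = 0.00049), and the tubulin gene tubb2b 22.7, 14.9 and 18.7 scaled TPM at 21 dpa, against 42.4, 52.0 and 40.1 at 7 dpa (log2 change -1.22, adjusted p = 0.0025). flvcr1, a haem exporter gene, had 2.02, 1.98 and 2.30 scaled TPM at 21 dpa, against 7.49, 7.34 and 4.59 at 7 dpa (log2 change -1.25, adjusted p = 0.00322), and stra6, for the membrane receptor that takes up vitamin A, 0.328, 0.353 and 0.86 scaled TPM at 21 dpa, against 1.62, 2.48 and 2.43 at 7 dpa (log2 change -1.08, adjusted p = 0.0017).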
